A study of Mus musculus with 12 samples.

Results

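The replication-dependent histone cluster genes of mouse embryonic stem cells were described in 12 total RNA libraries. They were taken as every gene that the authors' table of TPM values, transcript levels scaled for length and depth, lists as protein coding under a symbol starting with Hist1h, Hist2h, Hist3h or Hist4h. This gave 62 of the 39179 genes counted: 6 coding for linker histone H1, 19 for H2A, 17 for H2B, 7 for H3 and 13 for H4. By symbol, 50 belonged to the Hist1 cluster on chromosome 13, 9 to Hist2 on chromosome 3, 2 to Hist3 on chromosome 11 and 1 to Hist4 on chromosome 6. Of the 50, Hist1h2al is annotated on chromosome 13 but outside the cluster. The GENCODE M21 annotation also names Hist1h3d, Hist1h3f, Hist1h3g, Hist1h3h, Hist1h3i and Hist1h2aj, which are not among the 62.

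These genes supply the bulk of the histones that package newly made DNA, and a cell makes their mRNAs mainly while it replicates its genome in S phase. The mRNAs are not polyadenylated in most dividing cells. They end in a conserved stem-loop that is bound by the protein SLBP and cut with the help of the U7 small nuclear RNP, whose own proteins include LSM10 and LSM11, while NPAT drives their transcription at the histone locus body. Replication-independent variants such as H2A.Z and H3.3 come from polyadenylated genes elsewhere in the genome and are not among the 62. Embryonic stem cells divide quickly and spend much of their cycle in S phase.

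The study held 2 experiments on the BMP pathway, whose signal reaches the genome through SMAD1 and SMAD5. In the first, the BRE-GFP line, which carries a GFP reporter for a BMP response element on a background given as mixed CBA, C57Bl/6, was grown in FCS and Lif on feeder cells. It was sorted by flow cytometry on SSEA1 and GFP into BRE-positive (3 libraries) and BRE-negative cells (3 libraries), collected as pairs at 3 times. In the second, Smad1/5 -/- cells (KO, 4 libraries) were set against Smad1/5 fl/fl cells (FL, 2 libraries), both on a background of mixed CD-1, 129/Ola, C57Bl/6 and both in 2i and Lif on gelatin. The KO and FL libraries came from 2 parental lines with 1 FL and 2 KO samples each, and which library belongs to which line is not given. All 12 libraries were made from total RNA after ribosomal RNA removal, without selection for poly(A) tails. Library totals lay between 25862573 and 37319846 counts. The groups are called by their labels here: Smad1 had 14.5, 17.4, 13.5 and 12.3 CPM (counts scaled to the library's size) in KO and 19.1 and 18.0 CPM in FL, and Smad5 had 29.8, 25.1, 32.4 and 34.6 CPM in KO and 33.7 and 31.3 CPM in FL. Neither difference passed the test (edgeR, adjusted p = 0.19 for Smad1 and 0.72 for Smad5). These counts cover whole genes and the labels do not say which part was deleted, so they do not check the deletion. Embryonic stem cell markers (10 of 10 tested, Pou5f1 and Sox2 among them) summed to between 4701 and 5696 CPM in every library.

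The stem-loop that marks these mRNAs was read from the annotated transcripts, and it is shown because it is the feature that sets the family's mRNA 3′ ends apart. A stem of 6 base pairs around a loop of 4 bases that opens with TTT, placed after the stop codon, was found in 40 of the 49 members with an annotated 3′ UTR (GENCODE M21, GRCm38). The same search found one in 652 of 18439 other protein-coding genes (3.54%). There were 6 distinct sequences, starting 22 to 59 bases after the stop codon, printed 5′ to 3′ as DNA with the loop in capitals.
H1, H2A, H2B and H3 form (23 members): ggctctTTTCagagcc
H4 form (7 members): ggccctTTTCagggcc
H1, H2B and H3 form with an A-ending loop (5 members): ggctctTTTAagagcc
H4 form with a T-ending loop (2 members): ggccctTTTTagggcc
H4 form with another stem (2 members): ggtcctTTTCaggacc
Hist2h2ac: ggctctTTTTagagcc
The middle base pairs of the stem thus differ between H4 members and the others. Hist1h1a, Hist1h2af, Hist1h2ah, Hist1h2bc, Hist2h2be, Hist2h3b and Hist1h4a were tested members whose annotated 3′ UTR held no such match. The annotated 3′ UTRs of Hist1h2af and Hist1h2ah are 1 and 2 bases long, so the search could not find a stem-loop in them. A missing match in the annotation thus does not show that the mRNA lacks one.

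Promoters of 57 members were matched in RefSeq (GRCm38.p6, 250 bases before to 50 after the annotated start), and 3 motifs were searched on both strands. CCAAT, the box bound by the factor NF-Y, was present in 84.2% of the members and in 37.3% of 32793 other promoters. It was in each promoter matched for H1, H2A, H2B and H3 but in only 3 of 12 for H4. TATAAA, a core promoter element near the start of many genes, was in 56.1% of members and 13.5% of the others. The octamer ATTTGCAT, which OCT factors bind and which holds no other motif of the 3, was in 7 of 18 H2A and 5 of 15 H2B promoters, in none of the 24 others matched, and in 1.70% of promoters outside the family. The 250 bases upstream of 4 starts are given with these motifs in capitals on either strand, all on chromosome 13. Hist1h4h is the H4 gene with the largest fall in BRE-positive cells and Hist1h2bb the H2B gene with the highest level. Hist1h1a had the highest level of all members, and Hist1h2ba shares its upstream region with the divergent gene Hist1h2aa. Other H2A and H2B genes share windows in the same way, such as Hist1h2ae and Hist1h2bg. A motif in a shared stretch is counted for both genes.
Hist1h4h (chr13:23530794-23531043, plus strand): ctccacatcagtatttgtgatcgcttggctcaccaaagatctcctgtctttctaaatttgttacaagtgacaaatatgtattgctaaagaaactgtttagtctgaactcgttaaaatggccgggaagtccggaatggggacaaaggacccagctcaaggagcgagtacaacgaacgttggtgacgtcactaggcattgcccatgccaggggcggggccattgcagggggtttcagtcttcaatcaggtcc
Hist1h2bb (chr13:23746484-23746733, plus strand): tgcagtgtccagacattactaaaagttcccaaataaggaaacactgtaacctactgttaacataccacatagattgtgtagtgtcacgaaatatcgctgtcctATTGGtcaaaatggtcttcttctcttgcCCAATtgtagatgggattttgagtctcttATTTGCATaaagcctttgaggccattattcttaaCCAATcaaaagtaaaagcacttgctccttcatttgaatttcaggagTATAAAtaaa
Hist1h1a (chr13:23763418-23763667, plus strand): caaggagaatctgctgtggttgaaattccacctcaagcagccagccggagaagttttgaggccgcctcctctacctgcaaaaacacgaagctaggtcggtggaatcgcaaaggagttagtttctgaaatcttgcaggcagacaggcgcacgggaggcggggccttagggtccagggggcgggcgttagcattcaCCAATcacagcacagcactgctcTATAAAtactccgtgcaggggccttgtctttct
Hist1h2ba (chr13:23934157-23934406, minus strand): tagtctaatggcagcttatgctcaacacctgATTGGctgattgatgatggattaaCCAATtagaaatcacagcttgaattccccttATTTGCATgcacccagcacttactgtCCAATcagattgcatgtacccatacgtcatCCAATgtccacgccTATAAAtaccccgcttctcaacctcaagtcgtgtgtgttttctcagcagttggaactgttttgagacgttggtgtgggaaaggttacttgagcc
The Hist1h4h stretch holds none of the 3 motifs. The Hist1h2ba stretch holds 4 CCAAT boxes, and the windows of Hist1h2ba and Hist1h2aa share 220 bases. A match in these letters is a description and does not show that a factor binds there.

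The family was strongly expressed in every library. Summed over the members, it took between 0.770% and 1.36% of all counts. Of the 62 members, 43 had over 1000 counts in every library, while 6 had under 20 counts over all 12 together and 2 of these (Hist2h2aa2 and Hist2h3c1) had no count at all. On the authors' TPM scale, which is per length, Hist1h1a was highest with a mean of 3277 TPM over the 12 libraries (range 2739 to 3786), and it was the highest in each of the 4 groups. Hist1h1d averaged 2327 TPM. By the same mean over 12 libraries, the highest core histone genes were Hist1h2bb (2143 TPM) and Hist1h2bm (1968 TPM) for H2B, Hist1h4d (1817 TPM) and Hist1h4a (957 TPM) for H4, Hist1h2ak (1345 TPM) and Hist1h2al (1098 TPM) for H2A, and Hist1h3c (1189 TPM) and Hist1h3a (1045 TPM) for H3. The first of each class was the same in all 4 groups except in H2A. There Hist1h2al averaged 343 TPM in BRE-positive and 393 TPM in BRE-negative cells, below Hist1h2ak (1468 and 1684 TPM), but 1763 TPM in KO and 1956 TPM in FL cells, above Hist1h2ak (1129 and 1083 TPM). The genes known as testis forms were low: Hist1h1t averaged 27.3 TPM, Hist1h2aa 50.8 TPM and Hist1h2ba 36.1 TPM. Because the coding sequences are near copies, reads may be split or lost between members: 56 of the 60 with an annotated transcript share at least one 50-base stretch with another gene, and 28 share over 50% of theirs. Of the 62, 55 passed edgeR's expression filter in each comparison and 7 did not. In total RNA from many cells, fewer cells in S phase and less histone mRNA per cell cannot be told apart.

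**Figure D1:**
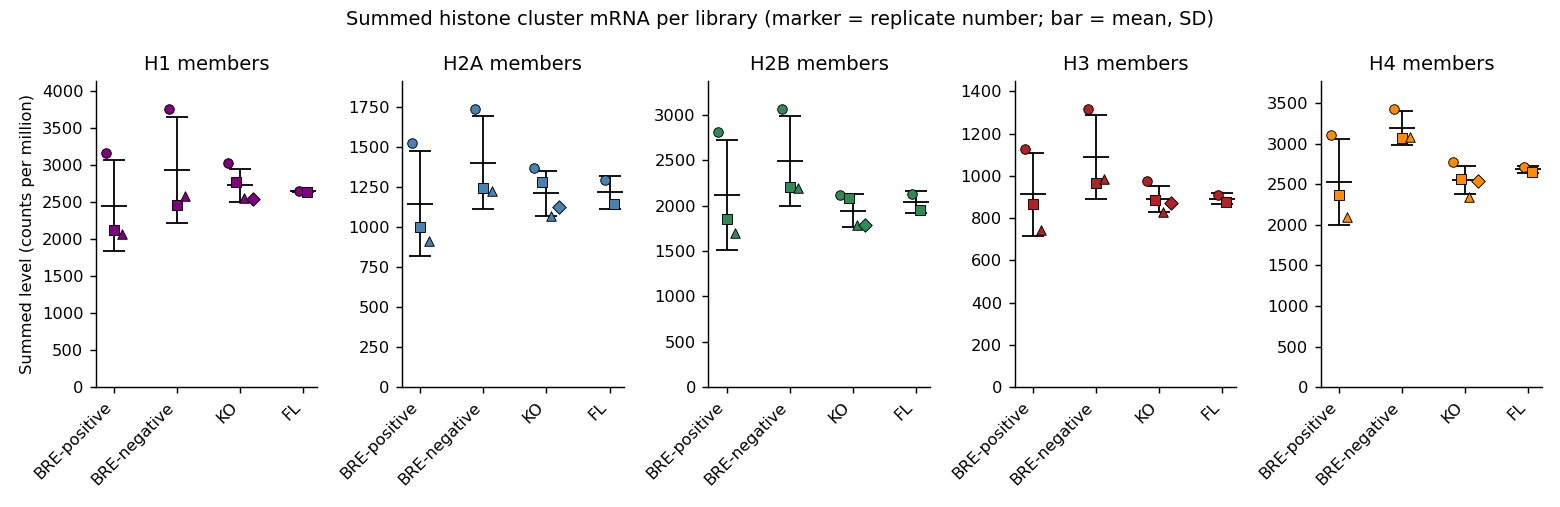
Summed CPM of the members of each histone class (y axis, from 0) in each of the 12 libraries, by group, with the marker giving the replicate number and the bars the mean and SD. The first collection of both reporter groups (circles) is the highest library of its group in all 5 panels, and in each pair the BRE-positive library is below its BRE-negative partner. KO and FL libraries together range, for example, from 1068 to 1370 CPM for H2A and from 2343 to 2769 CPM for H4.

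The comparison of BRE-positive with BRE-negative cells asks how cells with active BMP signalling differ from those without. Histone cluster mRNAs were lower in BRE-positive cells across all 5 classes. Of the 55 members tested, 37 fell and none rose at an adjusted p under 0.05 (edgeR's quasi-likelihood test with the collection pair as a block, Benjamini-Hochberg over 15435 genes), where 1.02% of all genes tested fell and 1.96% rose. The changes were small, with a median log2 fold change of -0.28 over the members against -0.0009 over all genes, or -0.61 to 0.02 from the lowest to the highest member. Summed over all members, levels were 11741, 8214 and 7528 CPM in BRE-positive and 13311, 9944 and 10068 CPM in BRE-negative cells of collections 1, 2 and 3. The ranges of the groups overlap, because the collections differ more than the groups do, but each BRE-positive library is below its own partner. In 50 of 55 members the BRE-positive library was the lower in 3 of 3 pairs (22.7% of all genes), while in 5 all BRE-positive libraries were below all BRE-negative ones (3.61% of all genes). The median log2 ratio over the members was -0.18 within the first pair, -0.30 within the second and -0.41 within the third, and that over all genes was between -0.02 and -0.01.

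**Figure D2:**
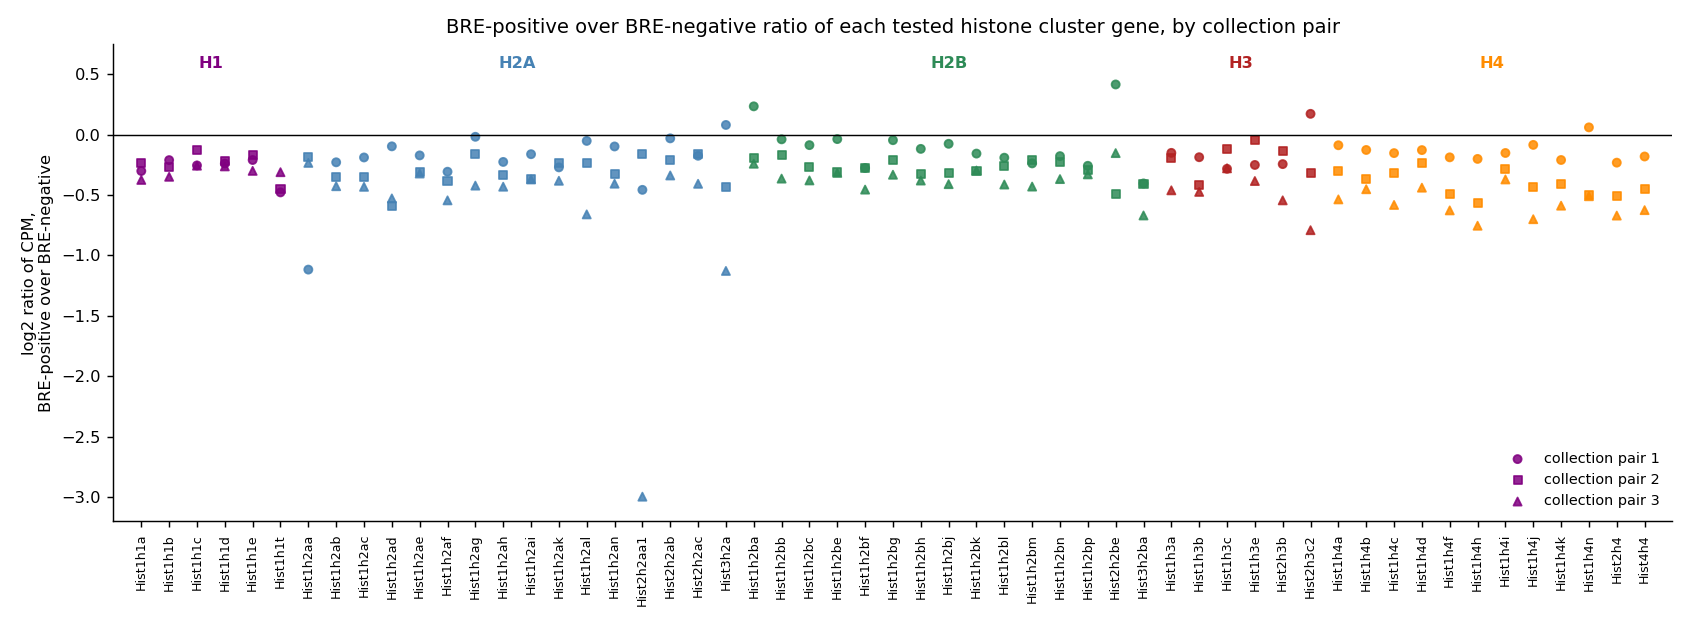
Log2 ratio of CPM, BRE-positive over BRE-negative, within each collection pair (circle, square and triangle for pairs 1, 2 and 3) for the 55 tested members, coloured by histone class. Nearly all points lie below 0: 50 of 55 members in pair 1 and 55 of 55 in pairs 2 and 3. The point at -3.00 is Hist2h2aa1, which had under 1 CPM in both groups on average.

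H4, which with H3 forms the centre of the nucleosome, had the most calls: 11 of 12 tested members fell, with a median log2 fold change of -0.36. Hist1h4h (chr13:23531050-23531519, plus strand, 1 exon) had 326, 205 and 181 CPM in BRE-positive cells of the 3 collections and 375, 304 and 306 CPM in BRE-negative cells. This difference, -0.49 ± 0.08 on the log2 scale (SE, n = 3 pairs, edgeR adjusted p = 0.0054), was the largest among called members. The 2 groups overlap only through the first BRE-positive library. Hist2h4 on chromosome 3 (-0.45), Hist1h4f (-0.42), Hist4h4 on chromosome 6 (-0.40), Hist1h4k (-0.39), Hist1h4j (-0.39) and Hist1h4c (-0.34) followed on the log2 scale. The most abundant H4 gene, Hist1h4d, had 557, 531 and 464 CPM in BRE-positive and 608, 625 and 629 CPM in BRE-negative cells, which gives -0.25 ± 0.06 on the log2 scale (SE, n = 3 pairs, edgeR adjusted p = 0.037). These 2 groups do not overlap. Hist1h4a fell by 0.30 on the log2 scale, also without overlap. Hist1h4n was the 1 H4 member that did not pass (log2 fold change -0.30, edgeR adjusted p = 0.091).

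Among H3 members, 4 of 6 tested fell, with a median log2 fold change of -0.23. Hist1h3b showed the largest, with 159, 105 and 109 CPM in BRE-positive and 181, 140 and 151 CPM in BRE-negative cells (log2 fold change -0.34 ± 0.06, SE, n = 3 pairs, edgeR adjusted p = 0.0090). The most abundant, Hist1h3c and Hist1h3a, fell by 0.21 and 0.25 on the log2 scale. Both passed closely, with edgeR adjusted p = 0.048 and 0.043.

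H2A and H2B pair to form the outer dimers of the nucleosome. For H2A, 8 of 16 tested members fell, with a median log2 fold change of -0.29. Hist1h2af had 86.2, 64.1 and 57.4 CPM in BRE-positive and 107, 83.4 and 83.7 CPM in BRE-negative cells, and its log2 fold change of -0.39 ± 0.06 (SE, n = 3 pairs) had the smallest adjusted p of the family (edgeR, 0.0035). Hist1h2ad fell by 0.38 and the abundant Hist1h2ak by 0.28 on the log2 scale, while Hist1h2al, at 56.3, 46.0 and 34.3 CPM in BRE-positive and 58.4, 54.1 and 54.2 CPM in BRE-negative cells, did not pass (log2 fold change -0.29, edgeR adjusted p = 0.096). For H2B, 9 of 15 fell, with a median of -0.24. Hist3h2ba on chromosome 11 had 29.1, 11.8 and 10.2 CPM in BRE-positive and 38.5, 15.6 and 16.3 CPM in BRE-negative cells (log2 fold change -0.46 ± 0.08, SE, n = 3 pairs, edgeR adjusted p = 0.0069). Hist1h2bm fell by 0.28, whereas Hist1h2bb, the most abundant, stood at -0.18 (edgeR adjusted p = 0.15). The divergent testis-type pair did not pass either: Hist1h2aa had a log2 fold change of -0.40 and Hist1h2ba of -0.11, at 1.12 to 4.32 and 1.18 to 3.70 CPM in BRE-positive cells.

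Linker histone H1, which binds DNA between nucleosomes, fell for 5 of 6 members, with a median log2 fold change of -0.25. Hist1h1a had 782, 654 and 578 CPM in BRE-positive and 963, 771 and 750 CPM in BRE-negative cells (log2 fold change -0.29 ± 0.05, SE, n = 3 pairs, edgeR adjusted p = 0.0089). Hist1h1d fell by 0.23 and the testis-type Hist1h1t by 0.41 on the log2 scale, the last from low levels of 8.12 to 10.7 CPM in BRE-positive and 10.1 to 14.9 CPM in BRE-negative cells. Members with a stem-loop match (24 of 35 fell), with a 3′ UTR but no match (5 of 7) and with no annotated 3′ UTR (8 of 13) had like median log2 fold changes of -0.28, -0.29 and -0.27. The group of 7 includes Hist1h2af and Hist1h2ah, whose annotated 3′ UTRs are too short to hold a match.

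These calls depended on the pairs and on the fit. Without the pair as a block 0 members passed edgeR's test (5 at an unadjusted p under 0.05). Limma on the deposited TPM values called 0 in each of 3 settings (33 to 35 unadjusted). These fits called 0 of all genes tested too, so their 0 is not particular to the members. Leaving out the third pair left 7 (0.436% of all genes), while leaving out the second left 31 (0.96% of all genes). The direction held more widely: between 52 and 58 members had a fold change below 0 in each alternative fit.

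Exon length moved with the result. Most members are short: 48 of them lie in the shortest length quintile of protein-coding genes tested (123 to 2456 bases), where the other genes had a median log2 fold change of -0.06 and 1.19% were called lower. In the longest quintile the median was 0.07 and 0.257% were called lower. Of the other genes in the shortest quintile, 8.39% lay below the members' median. These genes were not matched more closely to the members' lengths, such as 312 bases for Hist1h4k and 741 for Hist1h1a. Lengths are from GENCODE M21 and can differ from those behind the deposited TPM values. Hist1h1d, 7425 bases in M21, averaged 2327 TPM at 637 CPM over the 12 libraries, beside 3277 TPM at 770 CPM for Hist1h1a. The deposited TPM thus used a far shorter length for Hist1h1d. With offsets for length and GC content in the same fit, 23 of 53 members fell (1.49% of all genes), 21 of them among the 37, and the members' median log2 fold change was -0.23. The part of length in the rest of the result was not tested.

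**Figure D3:**
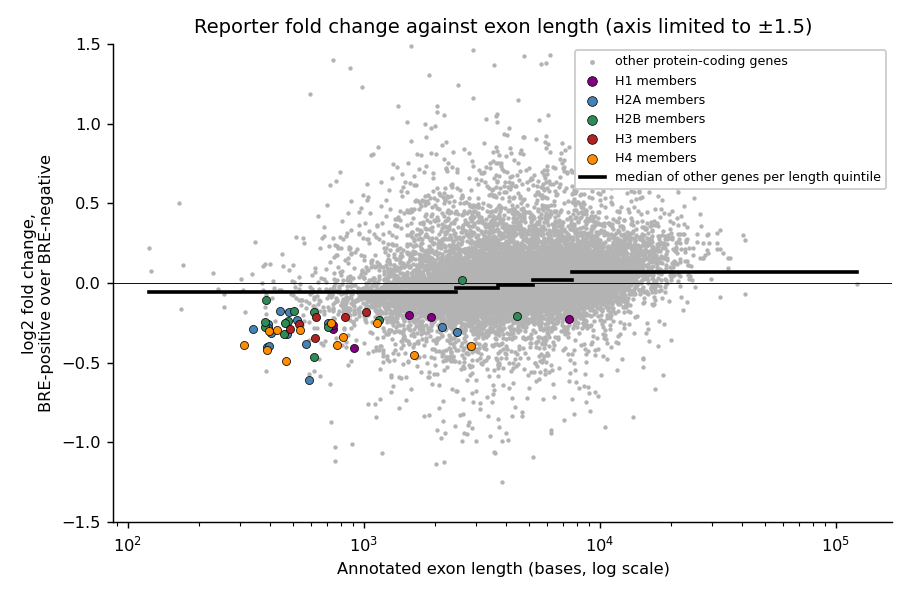
Log2 fold change, BRE-positive over BRE-negative, against annotated exon length (log axis) for 13587 other protein-coding genes (grey, 4 of them beyond the axis limits) and for the members by class (colours), with the median of the other genes in each length quintile as black lines. The members form a cluster below the median line of short genes, which is at -0.06. Hist1h1d, the longest in GENCODE M21 at 7425 bases, is at -0.23, but the deposited TPM values used a far shorter length for it. Hist2h2be, at 2620 bases and 0.02, is the 1 tested member above 0.

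The first collection stood apart for this family. In 45 of the 55 tested members both libraries of pair 1, BRE-positive and BRE-negative, were above all 4 libraries of pairs 2 and 3 (22.0% of all genes), and in 2 both were below (19.6% of all genes). The ratio of mean CPM in pair 1 to that in pairs 2 and 3 had a median of 1.45 over the members, against 1.01 over all genes. Hist1h1d was at 863 CPM in pair 1 and 473 CPM in the later pairs, a ratio of 1.82. By class, 5 of 6 H1, 14 of 16 H2A, 14 of 15 H2B, 5 of 6 H3 and 7 of 12 H4 members were above. The H4 median ratio was 1.42, but Hist1h4a, Hist1h4d and Hist1h4c were at 0.97, 1.04 and 1.09. The 2 members with both libraries of pair 1 below were the divergent neighbours Hist1h2aa, at 1.77 and 4.38 CPM, and Hist1h2ba, at 1.09 and 3.28 CPM. Only the collection separates these libraries in the labels, and its contents are not described. Without the first pair, 48 members fell, in a fit that called more genes lower throughout (7.19% of all genes).

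Genes that make and process histone mRNA seldom passed the test between the reporter groups, where 1.96% of all genes tested rose and 1.02% fell. Of 24 such genes, 1 rose and none fell: Pou2f1, which encodes the octamer-binding factor OCT1, up by 0.33 on the log2 scale (edgeR adjusted p = 0.0056). Slbp stood at -0.12 on that scale (edgeR adjusted p = 0.30), and Npat (0.06), Casp8ap2 (0.02), Lsm10 (-0.10), Lsm11 (-0.10) and Zfp473 (-0.02) did not pass. None of 11 replication-independent variants passed: H2afz had a log2 fold change of -0.08, H2afx of -0.17, H3f3a of 0.03 and H3f3b of -0.07. Of 20 histone chaperones, 2 rose, Ubn2 (0.57) and Atrx (0.28), both known for placing H3.3.

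Few other cell cycle genes passed, where 1.96% of all genes tested rose and 1.02% fell. Of 26 S phase genes, 1 fell, the replication licensing factor Cdc6 (log2 fold change -0.25, edgeR adjusted p = 0.047), and the median of the list was -0.10. Of 16 genes of G2 and M phase, 1 rose, the centromere protein gene Cenpf (0.35), with a list median of 0.04. Feeder fibroblast markers also moved: 5 of 18 fell, among them Acta2 (-1.12), Tagln (-0.57) and Col1a2 (-0.48), and the list median was -0.41. The summed level of the 18 ranged from 1492 to 1900 CPM in BRE-positive and from 1463 to 1760 CPM in BRE-negative cells. The same 18 summed to 674 to 760 CPM in FL cells on gelatin, so this sum does not measure feeder RNA alone. None of the 18 was at 0 in either reporter group on average, and 0 of 10 stem cell markers passed (median -0.04). The part of feeder cells and of the cell cycle in the histone result was not tested.

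The comparison of KO with FL cells asks what the loss of Smad1 and Smad5 changes in 2i. No histone cluster gene passed: 0 of 55 members were called in either direction by edgeR, where 5.03% of all 15933 genes tested were. At an unadjusted p under 0.05 there were 2 members (22.9% of all genes), and DESeq2 called 1 of 60 as higher (2.62% of all genes). Summed over all members, levels were 10261, 9589, 8587 and 8879 CPM in KO and 9692 and 9260 CPM in FL, with the 2 FL libraries inside the KO range. The members' median log2 fold change was -0.02 (0.01 over all genes), with 31 below and 24 above 0, and its sign changed with the setting. With length and GC offsets it was 0.086, where the median over all genes moved as well, to 0.093. It was 0.05 without FL 1 and -0.07 without FL 2 (0.02 and 0.0016 over all genes). The fit holds no term for the parental line, because the labels do not tie libraries to lines. Of 45 members whose mean log2 CPM was 5 or more, 42 had a fold change within 0.2 of 0 on the log2 scale, and the median standard error over the 55 was 0.10. In 7 members the libraries did not overlap (34.7% of all genes).

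The 2 members at an unadjusted p under 0.05 were both higher in KO. Hist1h2bh had 91.3, 88.6, 97.2 and 104 CPM in KO and 75.9 and 75.7 CPM in FL (log2 fold change 0.33 ± 0.08, SE, edgeR adjusted p = 0.057), without overlap, and was the 1 called by DESeq2. Hist1h2an had 47.3, 45.7, 54.4 and 54.5 CPM in KO and 36.3 and 42.9 CPM in FL (log2 fold change 0.35 ± 0.11, SE, edgeR adjusted p = 0.11). It shares 85.8% of its 50-base stretches with other genes. Among the abundant members, Hist1h4d averaged 473 ± 28.2 CPM in KO and 471 ± 24.1 CPM in FL (SD, n = 4 and 2), and Hist1h1a 799 ± 52.2 CPM in KO and 773 ± 16.2 CPM in FL. The testis-type Hist1h1t, Hist1h2aa and Hist1h2ba lay between -0.05 for Hist1h1t and -0.01 for Hist1h2ba on the log2 scale.

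Some members varied far more within the 2 groups than between them, and 2 of these were chosen for display after their values were seen. Hist1h4i had 37.6, 40.9, 98.9 and 103 CPM in KO replicates 1 to 4 and 43.2 and 124 CPM in FL replicates 1 and 2. Its values thus fall into a low set of 3 libraries and a high set of 3, each holding 2 KO and 1 FL library. Hist1h2al had 334, 303, 169 and 192 CPM in KO and 335 and 202 CPM in FL, with the sets in the opposite order and the same libraries in each. Its fold change between KO and FL was -0.10 ± 0.30 (log2, SE), and that of Hist1h4i -0.25 ± 0.52. Over all genes tested, deviations from the group means put KO 1 and KO 2 with FL 1 (correlations across genes 0.26 and 0.42) and KO 3 and KO 4 with FL 2 (0.41 and 0.36). The deviations of the 2 FL libraries are mirror images, so each KO library must correlate positively with 1 of them. A positive correlation is therefore no support in itself. Each set of Hist1h4i and Hist1h2al values holds 2 KO and 1 FL library, as each parental line does, but the labels do not say which libraries share a line.

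**Figure D4:**
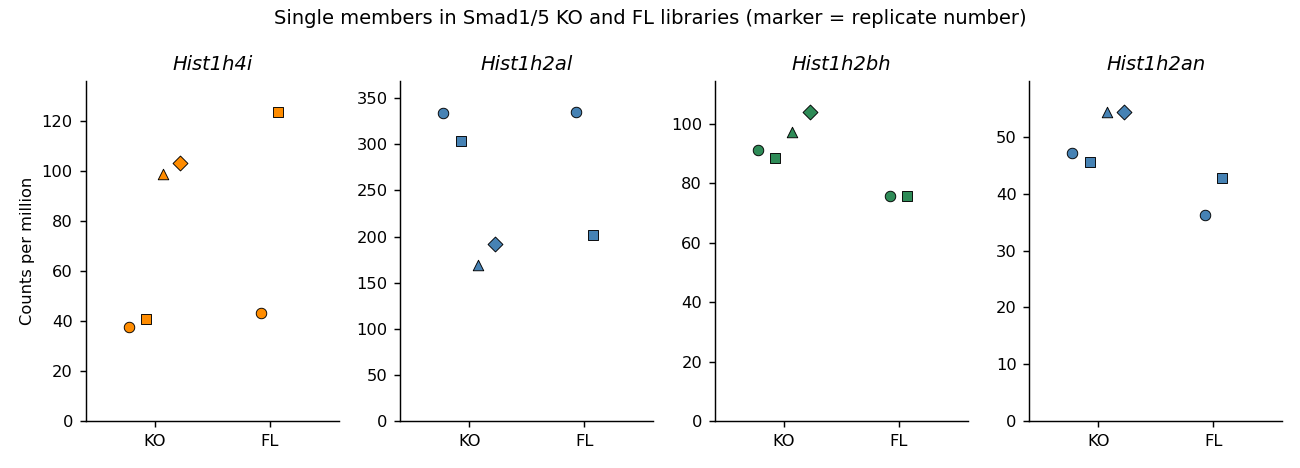
CPM (y axis, from 0) of 4 members in the 4 KO and 2 FL libraries, with the marker giving the replicate number. Hist1h4i and Hist1h2al each split into 2 levels that cut across KO and FL, from 37.6 to 43.2 and 98.9 to 124 CPM for Hist1h4i, while Hist1h2bh and Hist1h2an are higher in each KO library than in both FL libraries.

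Among genes that act with the family, a few passed in KO cells, where 5.03% of all genes tested passed. Of 24 histone mRNA factors 1 rose, the RNA helicase gene Upf1, which takes part in histone mRNA decay (log2 fold change 0.30, edgeR adjusted p = 0.045), and Slbp had 0.07. Npat, Casp8ap2, Lsm10, Lsm11, Zfp473, H2afz, H2afx, H3f3a and H3f3b did not pass, with log2 fold changes from -0.21 for Lsm11 to 0.22 for H2afz. Of 11 variants 2 fell, both coding for macroH2A: H2afy had 69.2 ± 3.16 CPM in KO and 106 ± 5.09 CPM in FL (SD, n = 4 and 2; log2 fold change -0.62, edgeR adjusted p = 0.0080), and H2afy2 fell by 0.96. One chaperone gene of 20, Nap1l1 (0.32), and one S phase gene of 26, Cdk2 (0.36), rose, and 0 of 16 genes of G2 and M phase passed. Of the stem cell markers, Nanog fell by 0.60 on the log2 scale. Most of these calls were lost under other settings: of 16 alternatives, Upf1 passed in 4, H2afy2 and Nap1l1 in 6 and Cdk2 in 8, against 14 for H2afy and 13 for Nanog. The alternative with a replicate block called no gene at all, so none of these could pass there. Feeder markers summed to 873 to 964 CPM in KO and 674 to 760 CPM in FL, with 0 of 9 tested called.

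BRE-negative and FL cells carry neither an active reporter nor a deletion, and setting them side by side compares the 2 culture systems. Medium, feeder cells, cell line, strain and sorting differ together and cannot be told apart. In BRE-negative cells 15 of 55 members were higher and 4 lower (edgeR adjusted p under 0.05), where 22.3% of all 16360 genes tested were higher and 23.4% lower. Both directions together give 19 of 55 members beside 45.7% of all genes, a difference that was not tested. The median log2 fold change was 0.32 over the members and -0.0049 over all genes. Without the first BRE-negative library the members' median was 0.19. Summed levels were 13311, 9944 and 10068 CPM in BRE-negative and 9692 and 9260 CPM in FL cells. No BRE-negative library was below FL, and the first collection gave the widest gap. Counts of calls moved with the settings: without FL 1 or FL 2 6 members passed (27.2% and 28.3% of all genes), without the first BRE-negative library 25 passed (51.7% of all genes), and with offsets for length and GC content 35 were higher and 3 lower of 53 (24.9% and 24.0% of all genes).

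The largest differences were in single members with low or unusual expression. Hist1h1t had 14.9, 14.5 and 10.1 CPM in BRE-negative and 3.50 and 2.63 CPM in FL cells (log2 fold change 2.10 ± 0.25, SE, n = 3 and 2, edgeR adjusted p = 0.00031). Hist3h2ba had 38.5, 15.6 and 16.3 CPM in BRE-negative and 9.11 and 9.01 CPM in FL cells (1.38 on the log2 scale), and Hist1h2bh 196, 160 and 150 CPM in BRE-negative and 75.9 and 75.7 CPM in FL cells (1.15). All 3 were higher in each BRE-negative library.

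The 4 members lower in BRE-negative cells were Hist1h2al, the divergent testis-type pair and Hist2h2ac. Hist1h2al had 58.4, 54.1 and 54.2 CPM in BRE-negative and 335 and 202 CPM in FL cells (log2 fold change -2.27 ± 0.19, SE, n = 3 and 2, edgeR adjusted p = 5.4e-05). GENCODE M21 annotates this gene as a processed pseudogene outside the cluster (chr13:51202727-51203065, minus strand), and 67.6% of its 50-base stretches occur in other genes, so its reads may come from another copy. Hist1h2aa had 2.42, 4.92 and 4.49 CPM in BRE-negative and 11.6 and 10.3 CPM in FL cells (log2 fold change -1.48, edgeR adjusted p = 0.0036). Hist1h2ba, which encodes the H2B of the same divergent unit, had 1.0, 4.23 and 2.81 CPM in BRE-negative and 8.69 and 6.22 CPM in FL cells (log2 fold change -1.48, edgeR adjusted p = 0.030). Both neighbours shared the direction, with no overlap between the groups. Hist2h2ac, on chromosome 3, had 75.2, 65.0 and 64.9 CPM in BRE-negative and 106 and 87.7 CPM in FL cells (log2 fold change -0.50, edgeR adjusted p = 0.012), also without overlap.

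By class, 7 of 16 H2A members were higher and 3 lower, 3 of 15 H2B higher and 1 lower, 3 of 12 H4 higher, 2 of 6 H1 higher, and 0 of 6 H3 passed (smallest edgeR adjusted p = 0.051). The abundant Hist1h2ak was among the higher ones, with 324, 205 and 220 CPM in BRE-negative and 148 and 159 CPM in FL cells, as was Hist1h4d, with 608, 625 and 629 CPM in BRE-negative and 488 and 454 CPM in FL cells.

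**Figure D5:**
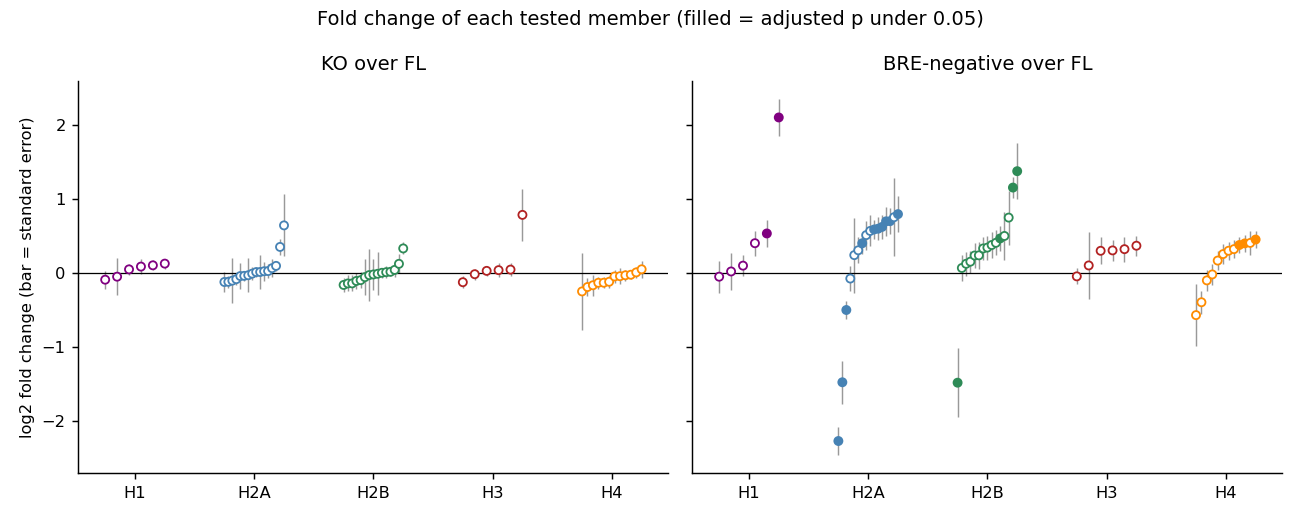
Log2 fold change of each of the 55 tested members by histone class, KO over FL (left) and BRE-negative over FL (right), with standard errors as bars and filled points for an adjusted p under 0.05. No point is filled on the left, and on the right 15 are filled above 0 and 4 below, with Hist1h1t at 2.10 and Hist1h2al at -2.27 as the extremes.

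Genes that act with the family were also called in this comparison, where 22.3% of all genes tested were higher and 23.4% lower. Whether the lists differ from these shares was not tested. Of 24 histone mRNA factors 7 were higher in BRE-negative cells, among them Slbp (log2 fold change 0.53, edgeR adjusted p = 0.0090) and Coil (0.67), which encodes the Cajal body protein coilin. The 6 lower ones included the U7 protein genes Lsm11 (-0.80) and Lsm10 (-0.47), Zfp473 (-0.37) and the cleavage factor gene Cstf2 (-0.88), while Npat (0.33) and Casp8ap2 (0.10) did not pass. Of 11 variants 6 were higher, such as H1fx (0.73), H1f0 (0.72), H2afy2 (0.68) and H3f3a (0.43), and 1 was lower, with H2afz at 0.13, H2afx at -0.14 and H3f3b at -0.14. Of 20 chaperones 5 were higher, led by the centromeric chaperone gene Hjurp (1.36), and 3 lower, led by Rbbp7 (-0.86) and Atrx (-0.76).

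Cell cycle lists went both ways in the same comparison, beside 22.3% of all genes tested higher and 23.4% lower. Of 26 S phase genes 6 were higher, with the helicase subunit genes Mcm3 (0.73) and Mcm6 (0.62), and 5 lower, with the polymerase gene Pola1 (-1.07), and the list median was 0.01. Of 16 genes of G2 and M phase, Cenpf (1.02) was higher and 5 were lower, among them Plk1 (-0.73) and Top2a (-0.71). Feeder markers differed as the cultures do: 15 of 18 were higher, with Col1a2 at a mean of 30.2 CPM in BRE-negative and 0.234 CPM in FL cells, Postn at 6.97 and 0.0407 CPM, and Acta2 at 4.47 and 0.0420 CPM. Their sum ranged from 1463 to 1760 CPM in BRE-negative and from 674 to 760 CPM in FL cells. Of the stem cell markers Klf4 was higher (2.02), while Zfp42 (-2.40) and Nanog (-0.63) were lower. The part of feeder RNA in the histone differences was not tested.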

How the data were processed

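Gene expression was measured in 12 total RNA libraries. Per the labels' protocols, ribosomal RNA was removed and libraries were made with a stranded total RNA kit. The submitters' processing notes name the builds mm10 and GRCm38.p4 and, without their roles, featureCounts 1.4.6, STAR 2.4.1d, DESeq2 1.6.3, FastQC 0.11.3 and CASAVA 1.8.2. The strand setting of the counting is unknown here, so overlapping and antisense genes may share reads. Deposited by the authors were raw counts for 39179 genes and a TPM table. The deposited TPM values, a normalised signal, followed (count + 1) per gene length in 100% of 38310 unique genes (tolerance 0.01 on the log2 scale), so a gene without counts is not at 0 TPM. Of its 39032 entries, 722 repeat a gene, and each gene was used once.

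Groups come from the sample titles. Raw counts of all genes were tested with edgeR 4.0.16 (R 4.3.3, quasi-likelihood, TMM scaling, expression filter with minimum count 10 and total 15), a call being a Benjamini-Hochberg adjusted p below 0.05. CPM use TMM-scaled library sizes, and a standard error is the fold change over the root of its F value. The BRE fit had the collection pair as a block, because the series says cells were collected in pairs, and same-numbered libraries deviated together (correlations across genes 0.71, 0.59 and 0.53, against -0.55 to 0.12 for other numbers). The other fits had no block. The samples are called biological replicates but separate cultures are not described, so p-values speak for the spread of these libraries. Alternatives used DESeq2 1.42.0, limma 3.58.1 on log2(TPM + 1) and log2(TPM + 0.1), other scalings and filters, length and GC offsets, and libraries left out. The edgeR fit was tested on simulated counts.

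The members, the gene lists and the tests were chosen with earlier results of these data known. Named were the 12 largest called changes (mean log2 CPM 1 or more) in the BRE comparison, the 2 most abundant members per class, the 3 largest called rises and falls between BRE-negative and FL cells, 10 partner genes and 3 testis-type members in any case, and up to 3 called genes per list. Members named beyond this were chosen after their values were seen. Annotation came from GENCODE M21 (GRCm38), which holds 60 of the 62 members by identifier, and promoter sequences from RefSeq GRCm38.p6. Coordinates are 1-based.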

Additional observations from a re-analysis of the deposited data

How the results depend on the processing

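In the BRE comparison the count of members called, 37, became 23 with length and GC offsets. It became 0 with no replicate block, with all 12 libraries in 1 fit (11 at an unadjusted p under 0.05) and with limma on log2(TPM + 1), on log2(TPM + 0.1) and without a filter. Each fit with 0 members called 0 of all genes as well. Leaving out 1 pair at a time gave 7 to 48 (7 without pair 3, 31 without pair 2, 48 without pair 1), while 0.436%, 0.96% and 7.19% of all genes were lower. DESeq2 called 36 members, 32 of them among the 37. In the KO comparison DESeq2 and the offsets gave 1 each (Hist1h2bh and Hist1h2an) in place of 0, and leaving out a library gave 0 each time. For BRE-negative against FL, 19 became 38 with the offsets and 7 with limma without a filter, and leaving out a library gave 6 to 25 (6 without FL 1 or FL 2, 25 without BRE-negative 1). Replicate numbers do not pair KO or BRE-negative with FL libraries. KO 1 and KO 2 both correlated with FL 1 (0.26 and 0.42), and KO 3 and KO 4 with FL 2 (0.41 and 0.36). With 2 FL libraries, the correlation with the other one is fixed at the opposite sign. Same-numbered BRE-negative and FL libraries were at -0.03. The replicate block gave 0 members in the KO and 20 in the BRE-negative comparison. In the KO comparison it called 0 of all genes.

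Some log2 fold changes near 0 changed sign. In the BRE comparison limma gave 0.0302 and 0.0375 for Hist1h2ba, 0.0545 and 0.0641 for Zfp473, 0.0105 for H2afz and 0.022 and 0.0227 for H3f3b (at + 1 and + 0.1). The offsets gave -0.0234 for Npat, -0.0602 for Casp8ap2 and -0.0038 for H3f3a. Leaving out 1 pair gave -0.0083 to 0.1218 for Npat, -0.0271 to 0.0879 for Casp8ap2 and -0.0092 to 0.0826 for H3f3a. In the KO comparison, leaving out 1 library gave -0.8148 to 0.6912 for Hist1h4i and -0.437 to 0.3104 for Hist1h2al, the highest of each without FL 2 and FL 1, and Hist1h2al was at 0.0821 with the offsets and 0.2923 with the replicate block. Hist1h4d was at -0.0066 with no count filter, -0.017 at 1 CPM, -0.0287 with limma and -0.0553 to 0.0619 with 1 library left out, and Slbp at -0.039 to 0.1659 with 1 library left out. With the offsets Hist1h1t was at 0.0716 and Hist1h2ba at 0.0225, and with 1 library left out at -0.2533 to 0.1692 and -0.2447 to 0.2506. For BRE-negative against FL, Casp8ap2 was -0.0272 to 0.2743 with 1 library left out and H3f3b was at 0.0718 with the offsets. Of these values 1 passed the test, Casp8ap2 at 0.2743 without BRE-negative 1 (edgeR adjusted p = 0.044). The members' median moved over 1.5 times to -0.17 in the BRE comparison with limma without a filter, and to 0.19 without BRE-negative 1 and 0.49 with the offsets in the last. Named calls of the BRE comparison passed in 5 to 8 of 13 alternatives (12 for Hist1h2bm), and in the last comparison Coil and Nanog passed in 5 of 15, Lsm10 and Zfp473 in 6 and Hist1h2ba in 9. Among these alternatives, the BRE fits without the replicate block, with all 12 libraries and with limma called no gene at all. No named gene could therefore pass in them. Depth limits the 7 untested and the other low members, and shared sequence limits near-identical copies. The cause of the other changes was not tested.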
